A study of Mus musculus with 9 samples.

Results

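The cyclin-dependent kinase inhibitor genes Cdkn1a, Cdkn1b, Cdkn1c, Cdkn2a, Cdkn2b, Cdkn2c and Cdkn2d, chosen by name, were 7 of the 20087 named genes measured by RNA sequencing in mouse embryos. Zygotes of the B6D2F1 background received small interfering RNA (siRNA, a short duplex that lowers a matching messenger RNA) against Hdac1 and Hdac2 (Hdac1/2 cKD), against Sin3a (Sin3a KD) or of a nonspecific control sequence (NC). Hdac1 and Hdac2 encode histone deacetylases, and Sin3a encodes the protein around which a corepressor complex with these enzymes is built. All embryos were collected at E2.75, and each of the 3 libraries of a group pooled 60 whole embryos, so a value is a mean over all cells of the pool and the NC embryos were injected too. The labels give wild type as the genotype of the NC embryos. The labels do not say that replicates came from separate collections, so the spread that the p-values rest on is that of these 9 samples and may be technical. In bulk embryos, fewer cells expressing a gene and less RNA per cell cannot be told apart.

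Cyclin-dependent kinases drive cells from one phase of the division cycle to the next once a cyclin has bound them, and these 7 genes encode the proteins that block them. The Cip/Kip proteins (p21 from Cdkn1a, p27 from Cdkn1b and p57 from Cdkn1c) bind whole cyclin and kinase complexes, most tightly those of Cdk2. The INK4 proteins (p16 from Cdkn2a, p15 from Cdkn2b, p18 from Cdkn2c and p19Ink4d from Cdkn2d) bind Cdk4 and Cdk6 and keep D-type cyclins from them, which leaves the retinoblastoma protein able to hold back E2F factors. Deacetylase complexes are known repressors of several of these genes in other cells, and Cdkn1a is a textbook gene induced by deacetylase inhibitors.

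Cdkn2a and Cdkn1c were higher in Hdac1/2 cKD than in NC, Cdkn1a was higher in Sin3a KD than in NC, and Cdkn2a was higher in Hdac1/2 cKD than in Sin3a KD. Thus 2 of 7 genes were called in Hdac1/2 cKD against NC, where 15.6% of all tested genes were, 1 of 7 in Sin3a KD against NC, where 7.96% were, and 1 of 7 in Hdac1/2 cKD against Sin3a KD, where 17.3% were. None of the 7 genes was called lower in these comparisons. Tests were made with limma on log2 of the deposited normalised count plus 1. The added 1 understates the change between low values, while a mean of logs can lie beyond the ratio of means where libraries are at or near 0. An example is Cdkn2d in Hdac1/2 cKD against NC (log2 2.40 at a ratio of means of 2.64), with 2 NC libraries at 0. Adjusted p-values are Benjamini-Hochberg values over all 13343 tested genes, and a gene was called below 0.05. All 7 genes passed the filter on low values, which asked for a normalised count of 10 or more in 3 or more libraries.

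Each siRNA went with a low level of its own target. In Hdac1/2 cKD the mean of Hdac1 was 16.9% and that of Hdac2 13.3% of the NC mean, and in Sin3a KD the mean of Sin3a was 29.0% of the NC mean. Hdac1 also stood at 34.3% of the NC mean in Sin3a KD, so the Sin3a KD embryos were low in 2 of the 3 targeted genes. Estimated depth was 8.38 to 16.9 M reads a library. NC replicate 3 was the shallowest library and had the largest share of genes listed at 0, 28.4% against 13.2% to 23.4% in the other 8 libraries. Per the labels, RNA for RFP and GFP had been put into each sample ahead of extraction, but 0 entries of the table carry either name. A change in total RNA per embryo could therefore not be measured here.

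Levels of the 7 genes were compared per kb of the longest coding transcript. Cdkn1a stood far above the other 6 in each group, at 1943 ± 119 normalised counts per kb in Hdac1/2 cKD, 2232 ± 356 in Sin3a KD and 1603 ± 246 in NC (SD, n = 3). Among the 12297 tested genes with a coding length, that was above 96.7% in Hdac1/2 cKD, 97.1% in Sin3a KD and 95.2% in NC. In Hdac1/2 cKD the next in order were Cdkn2a at 203 ± 43.0 per kb, Cdkn1c at 61.3 ± 8.54 and Cdkn2c at 34.3 ± 6.79, with no overlap of libraries between neighbours down to Cdkn1b at 9.72 ± 0.984. In Sin3a KD, Cdkn2c at 78.5 ± 9.68 per kb, Cdkn2a at 55.7 ± 12.7 and Cdkn1c at 46.8 ± 13.1 followed, and the libraries of each overlapped those of its neighbour. In NC, Cdkn2a at 42.0 ± 19.5 per kb, Cdkn2c at 32.2 ± 21.5 and Cdkn1c at 25.3 ± 7.09 overlapped likewise. Cdkn1b, Cdkn2b and Cdkn2d had means of 2.59 to 11.9 per kb in every group and overlapped their neighbours among each other. Summed over the 7 genes per kb, Cdkn1a made up 85.8% ± 0.801 in Hdac1/2 cKD, 91.6% ± 1.52 in Sin3a KD and 93.1% ± 2.76 in NC (SD, n = 3), a description with no test.

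**Figure D1:**
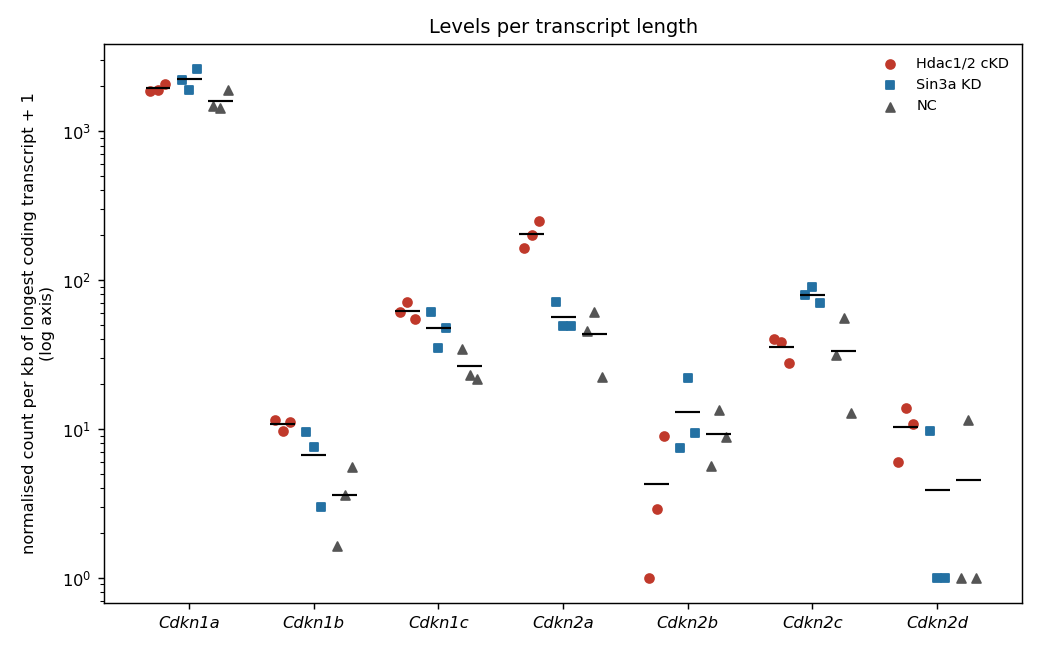
Normalised counts per kb of the longest coding transcript plus 1 (log axis) of the 7 inhibitor genes, with 1 point a library and a line at each group mean. Cdkn1a lies between 1438 and 2601 per kb in all 9 libraries, and Cdkn2a has its 3 Hdac1/2 cKD libraries above the libraries of Sin3a KD and NC.

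Approximate numbers of reads behind a value, which rest on the same estimate as the depth, set its precision. Cdkn1a rested on about 2526 to 5156 reads a library, Cdkn1c on 25.1 to 154, Cdkn2a on 12.3 to 221 and Cdkn2c on 18.6 to 232. Cdkn1b rested on 3.53 to 53.3 reads, Cdkn2b on 0 to 31.0 and Cdkn2d on 0 to 20.9. The intervals of the last 3 genes were wide at this depth.

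Cdkn1a (ENSMUSG00000023067.14, chromosome 17, 29090976 to 29100727, forward strand, GRCm38) encodes p21, which p53 induces after DNA damage. Its normalised counts were 3851, 3952 and 4319 in Hdac1/2 cKD, 4582, 3934 and 5410.4 in Sin3a KD, against 3088, 2991 and 3923 in NC. The 3 Sin3a KD libraries lay above the 3 NC libraries, although Sin3a KD replicate 2 and NC replicate 3 nearly met, and the lowest Hdac1/2 cKD library lay below NC replicate 3. Cdkn1a was 4642 ± 740 in Sin3a KD against 3334 ± 512 in NC (SD, n = 3), a ratio of means of 1.39 (log2 0.48, SE 0.13, 95% interval 0.20 to 0.76, adjusted p = 0.0403, limma). This call was kept in 8 of 19 alternative fits and in 2 of the 9 that left out 1 library, those without Sin3a KD replicate 2 and without NC replicate 3. With any of the other 7 libraries left out its adjusted p lay between 0.0526 and 0.173, at log2 0.36 to 0.48. With lane as a factor its adjusted p was 0.344 at log2 0.30. Within lane 3, the one lane shared by both groups, the difference was log2 0.23 with 2 Sin3a KD libraries and 1 NC library. In Hdac1/2 cKD it was 4041 ± 246, a log2 of 0.29 against NC (SE 0.13, 95% interval 0.01 to 0.57, adjusted p = 0.160). Without NC replicate 3 that comparison passed at log2 0.41 and adjusted p = 0.0429. Against Sin3a KD, Hdac1/2 cKD gave log2 -0.19 (SE 0.13, 95% interval -0.47 to 0.09, adjusted p = 0.364).

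**Figure D2:**
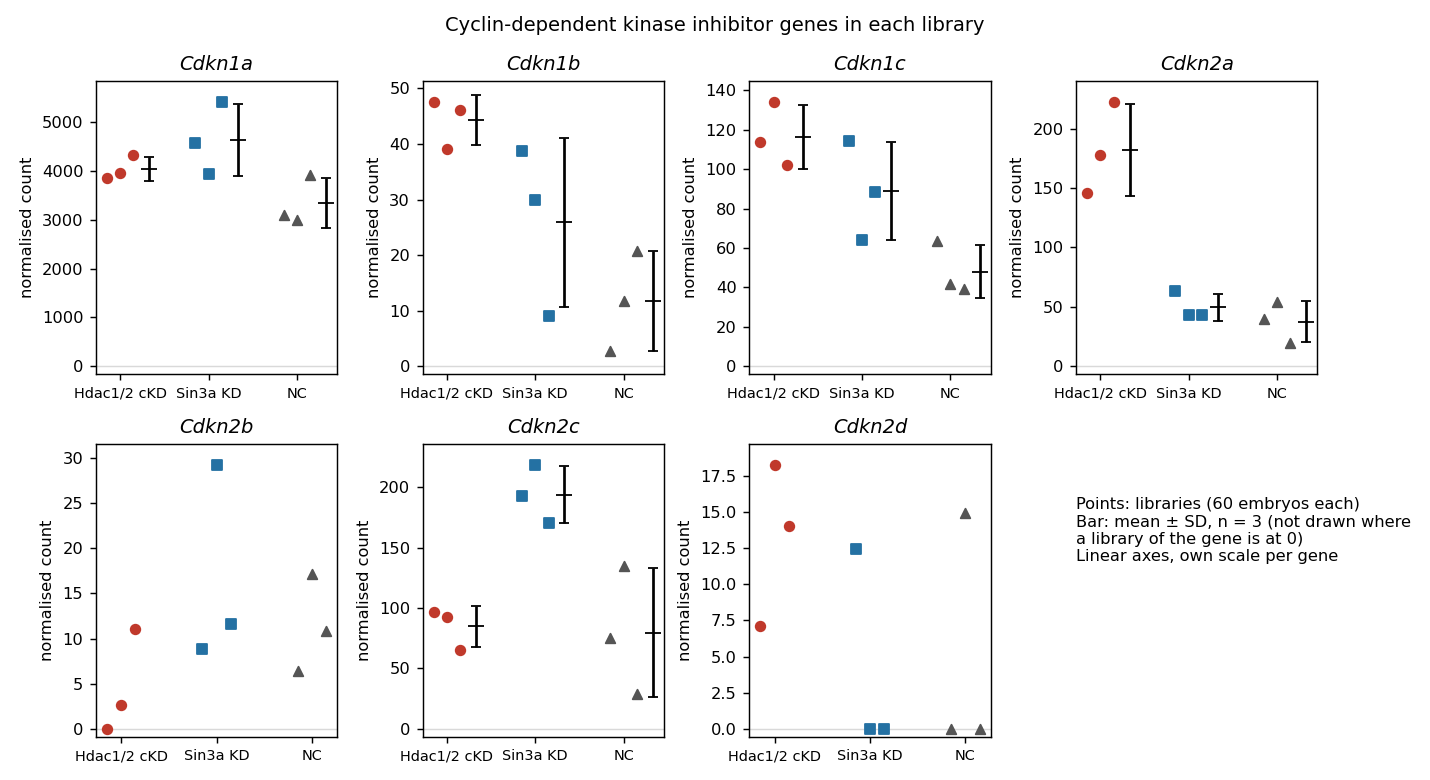
Normalised counts (linear axes, 1 scale a gene) of the 7 inhibitor genes in each library of 60 embryos, with mean ± SD (n = 3) where no library is at 0. Cdkn2a ran from 146 to 222 in Hdac1/2 cKD against 43.2 to 63.0 in Sin3a KD and 19.2 to 53.8 in NC, while Cdkn2c was highest in Sin3a KD.

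Cdkn1a has transcript starts at separate places, and the gene value sums over them. The 250 bases before 2 RefSeq starts on GRCm38.p6 are shown because p53 and GC box motifs fall in different ones. Both lie on the forward strand of chromosome 17, and capitals mark motif matches, p53 half-sites in the upstream window (chr17:29090729-29090978) and GC boxes in the downstream one (chr17:29093519-29093768).
Cdkn1a upstream start: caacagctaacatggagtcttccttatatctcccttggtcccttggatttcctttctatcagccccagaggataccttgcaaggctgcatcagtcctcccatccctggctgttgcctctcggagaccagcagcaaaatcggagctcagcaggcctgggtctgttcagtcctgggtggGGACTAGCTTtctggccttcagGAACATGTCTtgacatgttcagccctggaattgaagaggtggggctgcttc
Cdkn1a downstream start: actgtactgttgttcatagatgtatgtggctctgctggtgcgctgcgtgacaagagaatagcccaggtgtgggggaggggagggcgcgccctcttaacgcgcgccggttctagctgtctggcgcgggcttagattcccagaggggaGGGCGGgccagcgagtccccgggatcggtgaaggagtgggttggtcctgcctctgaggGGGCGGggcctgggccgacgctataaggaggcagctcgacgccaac
The upstream window held 2 matches to the p53 half-site, found in 7.13% of the 32851 windows of the RefSeq table, and 2 CG dinucleotides. The p53 half-site was added after the sequences were seen, so that share is no test of these matches. The downstream window held 2 matches to the GC box (GGGCGG, both strands), found in 32.7% of windows, and 19 CG. A window held a median of 6 CG, with quartiles of 2 and 16. A match describes the letters and is not evidence that a factor binds there.

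Cdkn1b (ENSMUSG00000003031.14, chromosome 6, 134920401 to 134925513, forward strand) encodes p27, which holds cells in quiescence and is removed through the ubiquitin ligase subunit Skp2. It had 47.5, 39.2 and 46.1 normalised counts in Hdac1/2 cKD, 38.7, 29.9 and 9.10 in Sin3a KD, against 2.82, 11.8 and 20.7 in NC. Each Hdac1/2 cKD library lay above all libraries of the other groups, although Hdac1/2 cKD replicate 2 and Sin3a KD replicate 1 nearly met. Sin3a KD replicate 3 fell among the NC libraries. The comparison of Hdac1/2 cKD, 44.3 ± 4.48, with NC, 11.8 ± 8.97 (SD, n = 3), gave log2 2.14 (SE 0.70, 95% interval 0.64 to 3.65) and did not pass, at adjusted p = 0.0539. It passed in 4 of 18 alternative fits, among them those without NC replicate 3 (adjusted p = 0.0221, log2 2.69) and without Sin3a KD replicate 3 (adjusted p = 0.0384). Over all 18 the adjusted p ranged from 0.0221 to 0.204. Within lanes the difference was log2 1.79 on lane 2 and 1.11 on lane 3. Sin3a KD, at 25.9 ± 15.2, did not pass against NC (log2 1.18, SE 0.70, 95% interval -0.32 to 2.69, adjusted p = 0.326). Hdac1/2 cKD did not pass against Sin3a KD (log2 0.96, SE 0.70, 95% interval -0.54 to 2.47, adjusted p = 0.394).

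Cdkn1c (ENSMUSG00000037664.13, chromosome 7, 143458339 to 143461050, reverse strand) encodes p57 and is an imprinted gene, expressed from the maternal copy in later embryos and known for its role in the placenta. Its normalised counts were 114, 134 and 102 in Hdac1/2 cKD, 114, 64.3 and 88.3 in Sin3a KD, against 63.5, 41.7 and 38.9 in NC. All Hdac1/2 cKD and all Sin3a KD libraries lay above the highest NC library, by a narrow margin for Sin3a KD replicate 2. Cdkn1c rose to 116 ± 16.2 in Hdac1/2 cKD against 48.0 ± 13.5 in NC (SD, n = 3), a ratio of 2.42 (log2 1.29, SE 0.33, 95% interval 0.58 to 1.99, adjusted p = 0.0170). The call was lost without Hdac1/2 cKD replicate 1 (adjusted p = 0.0517, log2 1.30) and without Hdac1/2 cKD replicate 2 (adjusted p = 0.0766, log2 1.18), and was kept in the other 17 of 19 alternative fits. The difference was log2 1.54 on lane 2 and 1.37 on lane 3. Sin3a KD, at 88.9 ± 25.0, did not pass against NC (log2 0.87, SE 0.33, 95% interval 0.17 to 1.57, adjusted p = 0.119). Hdac1/2 cKD did not pass against Sin3a KD (log2 0.42, SE 0.33, 95% interval -0.29 to 1.12, adjusted p = 0.437). The annotation places the gene Gm44732 on the opposite strand over Cdkn1c, as it does AC167363.2 over Cdkn1a. Whether the library kit kept the strand is not given in the sources used here, so reads from such partners cannot be told apart from those of the inhibitor genes.

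Cdkn2a (ENSMUSG00000044303.6, chromosome 4, 89274471 to 89294653, reverse strand) encodes unrelated proteins from alternative first exons, p16Ink4a, which blocks Cdk4 and Cdk6, and p19Arf, which stabilises p53 by holding Mdm2. It is known as a Polycomb-silenced gene whose expression rises in senescence. Its normalised counts were 146, 178 and 222 in Hdac1/2 cKD, 63.0, 43.2 and 43.3 in Sin3a KD, against 39.9, 53.8 and 19.2 in NC. Every Hdac1/2 cKD library lay well above the highest library of the other groups, while the Sin3a KD and NC libraries overlapped. Cdkn2a rose to 182 ± 38.5 in Hdac1/2 cKD against 37.6 ± 17.4 in NC (SD, n = 3), a ratio of means of 4.84 (log2 2.34, SE 0.39, 95% interval 1.497 to 3.182, adjusted p = 0.00153). This call was kept in all 19 alternative fits, at log2 1.93 to 2.65, and the difference was log2 1.56 on lane 2 and 3.47 on lane 3. Against the 49.8 ± 11.4 of Sin3a KD, Hdac1/2 cKD was higher by a ratio of 3.65 (log2 1.85, SE 0.39, 95% interval 1.01 to 2.69, adjusted p = 0.00554). That call was kept in 18 of 19 alternative fits and lost with lane as a factor (log2 1.79, adjusted p = 0.0813). Within lane 3, with 1 Hdac1/2 cKD and 2 Sin3a KD libraries, the difference was log2 2.34. Sin3a KD did not pass against NC (log2 0.49, SE 0.39, 95% interval -0.35 to 1.33, adjusted p = 0.482). The share of Cdkn2a in the summed level of the 7 genes per kb was 8.92% ± 1.04 in Hdac1/2 cKD, 2.31% ± 0.468 in Sin3a KD and 2.55% ± 1.10 in NC.

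The deposited table has 1 value for Cdkn2a, which cannot separate its transcripts. GENCODE vM21 lists one that starts at 89294653 with the p19Arf first exon and one that starts at 89282192 with the p16Ink4a first exon, and both share the later exons down to the lower end of the gene. The 250 bases before each RefSeq start are shown because the called difference could come from either. Both are on the reverse strand of chromosome 4 of GRCm38.p6, chr4:89294620-89294869 for the p19Arf start and chr4:89282193-89282442 for the p16Ink4a start, with GC boxes in capitals.
Cdkn2a p19Arf start: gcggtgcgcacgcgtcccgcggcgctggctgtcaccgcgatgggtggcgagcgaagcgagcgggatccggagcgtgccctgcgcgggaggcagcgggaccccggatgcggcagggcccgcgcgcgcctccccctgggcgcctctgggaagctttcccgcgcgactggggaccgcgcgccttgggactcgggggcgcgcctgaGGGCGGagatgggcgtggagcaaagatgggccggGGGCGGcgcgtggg
Cdkn2a p16Ink4a start: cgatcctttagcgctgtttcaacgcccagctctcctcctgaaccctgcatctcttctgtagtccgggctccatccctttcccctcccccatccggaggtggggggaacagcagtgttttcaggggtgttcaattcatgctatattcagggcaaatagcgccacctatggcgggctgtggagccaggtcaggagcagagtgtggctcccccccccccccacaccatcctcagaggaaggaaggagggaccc
The p19Arf window held 40 CG dinucleotides, more than 98.7% of windows, and 2 GC boxes, and it overlaps the 5′ end of the GENCODE transcript. The p16Ink4a window held 7 CG and no match to any motif searched, which were the GC box, the CCAAT box (CCAAT, 33.8% of windows), the TATA box (TATAAA, 12.4%), an E-box (CACGTG, 6.02%), the core of an E2F site (TTCGCGC, 1.28%) and the p53 half-site. Of the 9 windows found for 6 of the genes, with none for Cdkn1c, 5 held a GC box, 1 each for Cdkn1a, Cdkn1b, Cdkn2a, Cdkn2c and Cdkn2d. None held the TATA box, the E-box or the E2F core. The Cdkn2b window held 12 CG and no match.

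Cdkn2b (ENSMUSG00000073802.5, chromosome 4, 89306299 to 89311039, reverse strand) encodes p15, which transforming growth factor beta induces in epithelial cells, and lies 11.6 kb from Cdkn2a. It had 0, 2.62 and 11.1 normalised counts in Hdac1/2 cKD, 8.88, 29.2 and 11.6 in Sin3a KD, against 6.38, 17.1 and 10.9 in NC. The groups overlapped in each comparison, and the lowest values were those of Hdac1/2 cKD replicates 1 and 2. For Hdac1/2 cKD against NC the log2 was -1.73 (SE 0.98, 95% interval -3.83 to 0.37, adjusted p = 0.262), against the log2 of 2.34 of its neighbour Cdkn2a. The other comparisons did not pass either, with log2 0.42 for Sin3a KD against NC (95% interval -1.69 to 2.52, adjusted p = 0.841) and log2 -2.14 for Hdac1/2 cKD against Sin3a KD (95% interval -4.25 to -0.04, adjusted p = 0.156).

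Cdkn2c (ENSMUSG00000028551.14, chromosome 4, 109660876 to 109667189, reverse strand) encodes p18, an INK4 protein of many dividing and differentiating tissues. Its normalised counts were 96.5, 92.2 and 65.6 in Hdac1/2 cKD, 193, 219 and 171 in Sin3a KD, against 75.01, 135 and 28.8 in NC. The Sin3a KD libraries lay above all 6 other libraries, and the NC libraries spread widely, with replicate 3 lowest and replicate 2 highest. Sin3a KD, at 194 ± 23.9, against NC, at 79.6 ± 53.2 (SD, n = 3), gave log2 1.52 (SE 0.44, 95% interval 0.57 to 2.47) and narrowly did not pass, at adjusted p = 0.0507. It passed in 6 of 19 alternative fits, among them the one without NC replicate 2 (log2 2.03, adjusted p = 0.00634), and within lane 3 the difference was log2 2.70. Hdac1/2 cKD, at 84.8 ± 16.8, against Sin3a KD gave log2 -1.20 (SE 0.44, 95% interval -2.14 to -0.25, adjusted p = 0.0803). This passed in 5 of 19 alternative fits, with adjusted p-values of 0.00941 without NC replicate 3 and 0.0279 without NC replicate 2, which enter only through the shared estimate of the spread. Hdac1/2 cKD did not pass against NC (log2 0.32, SE 0.44, 95% interval -0.62 to 1.27, adjusted p = 0.669), and the sign of that value turned without NC replicate 3 (log2 -0.27).

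Cdkn2d (ENSMUSG00000096472.2, chromosome 9, 21288410 to 21291407, reverse strand) encodes p19Ink4d, best known from neurons. It had 7.11, 18.2 and 14.0 normalised counts in Hdac1/2 cKD, 12.4, 0 and 0 in Sin3a KD, against 0, 14.9 and 0 in NC. Each Hdac1/2 cKD library held reads, against 1 of 3 libraries in each other group. No comparison passed, with log2 2.40 for Hdac1/2 cKD against NC (95% interval -0.68 to 5.48, adjusted p = 0.289), log2 -0.08 for Sin3a KD against NC (95% interval -3.16 to 2.99, adjusted p = 0.980) and log2 2.48 for Hdac1/2 cKD against Sin3a KD (95% interval -0.60 to 5.56, adjusted p = 0.269).

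Hdac1/2 cKD against NC thus called 2 of the 7 genes higher, 0 lower and left 5 that did not pass, where 15.6% of all tested genes were called, 7.81% higher and 7.80% lower. The median log2 of the 7 genes was 1.29, against 0.03 over all tested genes, and 3 had all Hdac1/2 cKD libraries above all NC libraries, a pattern of 17.1% of tested genes. Sin3a KD against NC called 1 of 7 higher and 0 lower, where 7.96% of tested genes were called, 3.60% higher and 4.36% lower. Its median was 0.49, against 0.03, and 3 of 7 genes lay wholly above NC, as did 13.9% of tested genes. Hdac1/2 cKD against Sin3a KD called 1 of 7 higher and 0 lower, where 17.3% of tested genes were called, 8.49% higher and 8.78% lower. The median was 0.42, against 0.01, with 2 genes wholly above (20.4% of tested genes), Cdkn1b by a narrow margin, and 1 wholly below (19.3%). The comparisons with NC share their control libraries and are not independent. Counts of 1 or 2 among 7 genes are too few to set the inhibitor genes apart from all tested genes.

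**Figure D3:**
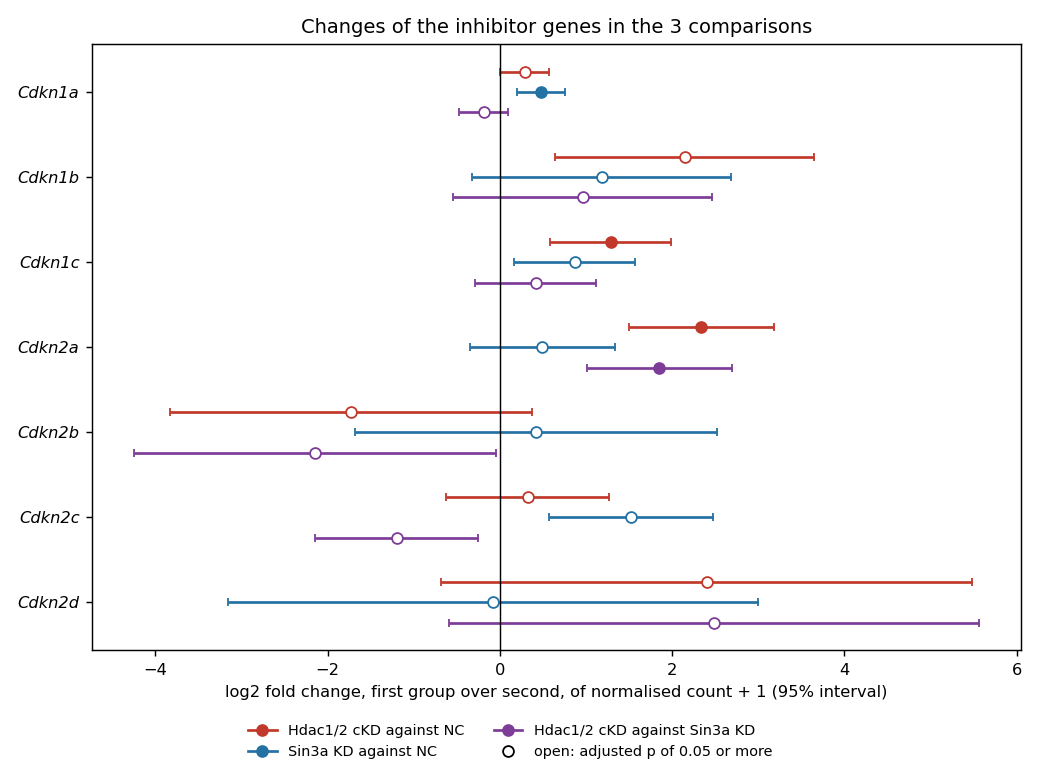
Log2 fold changes of normalised count + 1 with 95% intervals for the 7 inhibitor genes in the 3 comparisons, first group over second, filled where the adjusted p is below 0.05. Filled points are Cdkn1a in Sin3a KD against NC, Cdkn1c in Hdac1/2 cKD against NC and Cdkn2a in Hdac1/2 cKD against NC and against Sin3a KD.

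The calls differed in how far they depended on single libraries and on the fit. Cdkn2a in Hdac1/2 cKD against NC had its weakest adjusted p at 0.0118. Cdkn1a in Sin3a KD against NC had adjusted p-values from 0.0153 to 0.344. Cdkn2a is therefore the one inhibitor gene whose called difference from NC was kept in every alternative fit that was run.

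**Figure D4:**
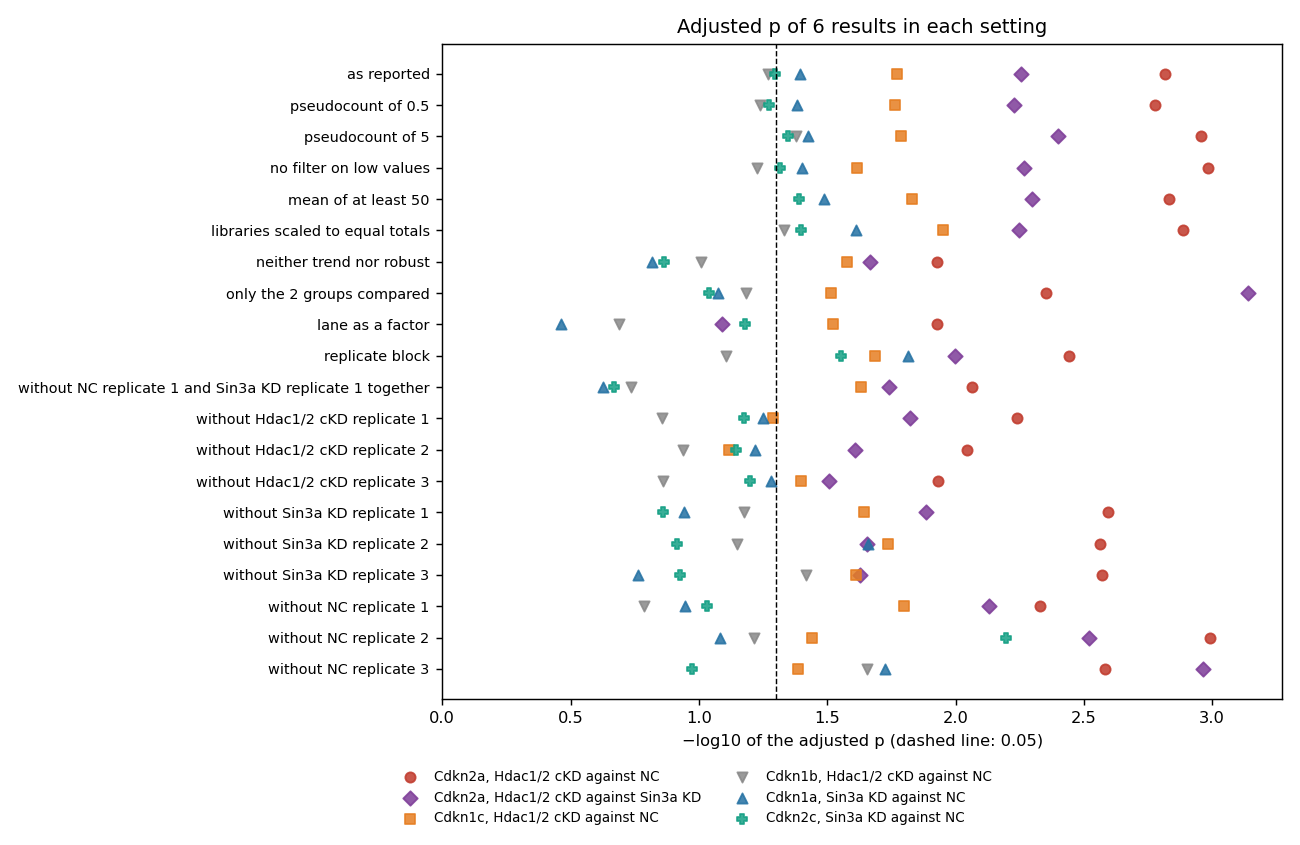
Adjusted p (as −log10) of 6 results on the inhibitor genes as reported and in 19 alternative fits, where mean of at least 50 leaves out Cdkn1b. Cdkn2a in Hdac1/2 cKD against NC stays right of the 0.05 line throughout, while Cdkn1a in Sin3a KD against NC lies right of it in 8 of the alternatives.

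Genes next to the inhibitor genes on the chromosome were taken as the 2 nearest of the table on each side. Of all tested genes 15.6% were called in Hdac1/2 cKD against NC, 7.96% in Sin3a KD against NC and 17.3% in Hdac1/2 cKD against Sin3a KD. Whether the neighbours differ from all tested genes was not tested. Mtap, which salvages methionine from methylthioadenosine and lies 93.4 kb from Cdkn2a, rose in Hdac1/2 cKD. It had 157, 149 and 247 normalised counts in Hdac1/2 cKD, 73.5, 75.6 and 120.5 in Sin3a KD, against 72.3, 75.2 and 80.8 in NC, with all Hdac1/2 cKD libraries above all others. Its log2 was 1.23 against NC (SE 0.30, adjusted p = 0.0134, lost without Hdac1/2 cKD replicate 3 at 0.0758 and without both libraries that are alone on their lanes) and 1.03 against Sin3a KD (SE 0.30, adjusted p = 0.0291, lost without Hdac1/2 cKD replicate 1 or 3 or Sin3a KD replicate 1 or 2). Phlda2, an imprinted growth regulator of the placenta 40.5 kb from Cdkn1c, had 92.9, 108 and 169.7 in Hdac1/2 cKD, 62.4, 37.5 and 37.4 in Sin3a KD, against 20.9, 29.4 and 0 in NC. Its log2 of 3.79 against NC (SE 1.07, adjusted p = 0.0384) was called in 7 of 19 alternative fits, and leaving out any Hdac1/2 cKD or Sin3a KD library lost the call. Slc44a2, a choline transporter 29.3 kb from Cdkn2d, rose to 551 against 180.1 in NC (log2 1.79, adjusted p = 0.01998, lost without Hdac1/2 cKD replicate 2 or 3). Ddx47, an RNA helicase 86.1 kb from Cdkn1b, fell in Hdac1/2 cKD (log2 -0.63, SE 0.11, adjusted p = 0.00184). Stk38 (log2 0.55) and Cpne5 (log2 1.34) beside Cdkn1a and Dmrta2 (log2 1.081) beside Cdkn2c were higher and Rnf11 (log2 -0.48) beside Cdkn2c was lower in Hdac1/2 cKD than in Sin3a KD. Of these, the call of Rnf11 was kept with any library left out, that of Dmrta2 in 6 of 9 such fits and those of Stk38 and Cpne5 in 3 of 9. Cpne5 was also lower in Sin3a KD than in NC (log2 -1.47, adjusted p = 0.0436, kept in 2 of 9). Tested neighbours that passed in no comparison were Srsf3 beside Cdkn1a, Crebl2 and Gpr19 beside Cdkn1b, and Tssc4 and Nap1l4 beside Cdkn1c. The same held for Zfp352 beside Cdkn2b, Faf1 beside Cdkn2c and Atg4d, Kri1 and Ap1m2 beside Cdkn2d. Rab44, Apold1, Kcnq1, Gm13288, Dmrta1 and 4930522H14Rik did not pass the filter on low values. All other neighbours outside the inhibitor genes are named above with their calls.

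Of 7 tested imprinted genes on the Cdkn1c chromosome arm, Phlda2 and Ascl2 were higher in Hdac1/2 cKD than in NC and 0 were lower, where 7.81% of all tested genes were called higher and 7.80% lower. Their median log2 was 1.76, against 0.03 over all tested genes, and 5 of the 7 did not pass. The 2 called genes had low NC means, 16.8 for Phlda2 and 6.91 for Ascl2, where log2 values are imprecise. Ascl2, a transcription factor of the early placenta, had 26.1, 27.0 and 34.2 in Hdac1/2 cKD, 59.2, 35.2 and 90.2 in Sin3a KD, against 5.53, 12.5 and 2.67 in NC. It was called in Hdac1/2 cKD against NC (log2 2.12, SE 0.59, adjusted p = 0.0255), and in Sin3a KD against NC it was the 1 gene called, higher (log2 3.09, SE 0.59, adjusted p = 0.00845). The first call was lost when any Hdac1/2 cKD library, NC replicate 1 or NC replicate 3 was left out, and the second without Sin3a KD replicate 3. None of the 7 passed in Hdac1/2 cKD against Sin3a KD, where 17.3% of all tested genes were called. In Sin3a KD against NC that share was 7.96%.

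For each inhibitor gene whose group means spanned a log2 of at least 1, the 3 tested genes with the most similar pattern over the 9 libraries were found by the smallest root mean square difference of centred log2 values. Nearest to Cdkn2a were Fam117a (0.18), the Polycomb subunit gene Cbx2 (0.32) and Pcyox1 (0.33). Fam117a was 252 ± 20.3 in Hdac1/2 cKD, 84.0 ± 20.6 in Sin3a KD and 63.2 ± 29.2 in NC. Nearest to Cdkn1c were Ctdsp1 (0.21), E330009J07Rik (0.21) and Nes (0.23), and to Cdkn2c Lrig1 (0.22), Asb7 (0.25) and Mxd4 (0.28). Lrig1, a brake on growth factor receptors, was 147 ± 9.47 in Hdac1/2 cKD, 297 ± 16.8 in Sin3a KD and 109 ± 65.3 in NC, high in the libraries where Cdkn2c was high. The nearest to Cdkn1b were Masp2 (0.27), Fgf18 (0.49) and Fcgrt (0.57). For Cdkn2b, led by Magea2 (0.53), and Cdkn2d, led by Mobp (0.81), the values were larger. These are descriptions over 9 libraries chosen from all tested genes and have no test.

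Other gene lists are described by their counts of called genes. In Sin3a KD against NC all 14 such counts above 0 moved by more than 1.5 times with neither trend nor robust variances, and 13 of 14 with lane as a factor. Cyclins and cyclin-dependent kinases, among them the direct partners of the inhibitors, were 19 tested genes. In Hdac1/2 cKD against NC 5 of them rose and 0 fell, against 7.81% and 7.80% of all tested genes (median log2 0.17, against 0.03), namely all 3 D-type cyclins, Ccnd1, Ccnd2 and Ccnd3, and the kinases Cdk5 and Cdk6. Ccnd1 had 1957, 1896 and 2524 normalised counts in Hdac1/2 cKD, 203, 330.3 and 288 in Sin3a KD, against 180.1, 276 and 275 in NC, with no overlap of Hdac1/2 cKD with the others. The call of Ccnd2 was lost without Hdac1/2 cKD replicate 1 or 2. Ccnd3 was 4675 ± 135 in Hdac1/2 cKD against 2099 ± 301 in NC (log2 1.16, SE 0.12, adjusted p = 5.23e-05). Cdk6, one of the kinases that INK4 proteins block, was 198 ± 55.7 against 89.0 ± 16.8 (log2 1.13, SE 0.29, adjusted p = 0.0170, lost without Hdac1/2 cKD replicate 3 at 0.0927). Cdk4 and Cdk2, named here for their role and not by the rule for named genes, did not pass (log2 0.08 with adjusted p = 0.730 and log2 -0.19 with adjusted p = 0.348). Sin3a KD against NC called Cdk5 higher (log2 1.18, adjusted p = 0.0298, lost without Sin3a KD replicate 1 or 3 or NC replicate 1 or 2) and Ccna2, the S phase cyclin, lower (log2 -0.55, adjusted p = 0.00947), with a median of -0.15. These are 1 higher and 1 lower of 19, against 3.60% and 4.36% of all tested genes. Compared with Sin3a KD, Hdac1/2 cKD had 6 called higher and 0 lower, against 8.49% and 8.78% of all tested genes, among them Ccnd1 (log2 2.97), Ccnd2 (log2 2.16) and Ccna2 (log2 0.73).

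Of 19 retinoblastoma and E2F genes, 1 rose and 3 fell in Hdac1/2 cKD against NC, against 7.81% and 7.80% of all tested genes. The activator E2f2 fell, with 205 ± 68.5 in Hdac1/2 cKD against 413 ± 21.2 in NC (log2 -1.07, SE 0.24, adjusted p = 0.00998), and Lin37 and Mybl2 fell too, while E2f3 was higher at adjusted p = 0.0499 and kept that call in 4 of 19 alternative fits. Without Hdac1/2 cKD replicate 1 the count of 3 was 1, and the call of Lin37 was also lost without Hdac1/2 cKD replicate 3. In Sin3a KD against NC the 1 gene called was Rb1, the retinoblastoma gene, higher at 45.1, 54.8 and 115 in Sin3a KD against 20.2, 15.8 and 25.6 in NC (log2 1.66, SE 0.44, adjusted p = 0.0336, kept in 8 of 18 alternative fits). That comparison called 3.60% of all tested genes higher and 4.36% lower. Against Sin3a KD, Hdac1/2 cKD had 0 higher and Mybl2 lower (log2 -0.41, adjusted p = 0.0132, lost without Hdac1/2 cKD replicate 1 or Sin3a KD replicate 1), where 8.49% and 8.78% of all tested genes were called.

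Among 17 tested genes of p53 and its regulators, 1 rose and 1 fell in Hdac1/2 cKD against NC, near the 7.81% and 7.80% of all tested genes. Trp53, which encodes p53, rose in Hdac1/2 cKD to 1774 ± 115 against 1223 ± 104 in NC (log2 0.54, SE 0.11, adjusted p = 0.00486), and Chek2 fell, a call kept in 5 of the 9 fits that left out 1 library. In Sin3a KD against NC 0 rose, and Npm1 and Kat5 fell, against 3.60% and 4.36% of all tested genes. Both calls were lost without Sin3a KD replicate 3, and that of Npm1 also without Sin3a KD replicate 1. Trp53, at 1458 ± 13.7, did not pass (log2 0.26, adjusted p = 0.165). Kat5 and Sirt1 were higher and Rchy1 was lower in Hdac1/2 cKD than in Sin3a KD, against 8.49% and 8.78% of all tested genes. The first 2 calls were kept in 3 and 4 of the 9 fits that left out 1 library.

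Of the p53 target genes other than Cdkn1a, 10 of 28 rose in Sin3a KD against NC and 0 fell, against 3.60% and 4.36% of all tested genes (median log2 0.54, against 0.03). Bbc3, which encodes the cell death protein Puma, had 1190.3, 969.6 and 1469 in Sin3a KD against 237, 394 and 448 in NC (log2 1.78, SE 0.25, adjusted p = 0.00297), with no overlap. Ddit4 (log2 0.64, adjusted p = 0.00297), Dcxr (log2 1.89, adjusted p = 0.00770) and the nuclease gene Aen (log2 0.61, adjusted p = 0.0131) rose as well, with the call of Aen lost without Sin3a KD replicate 1 or 3. The count of 10 was 3 without Sin3a KD replicate 1, 3 without Sin3a KD replicate 3, 4 without NC replicate 1, 2 without both libraries alone on their lanes, 0 with lane as a factor and 0 with neither trend nor robust variances. In Hdac1/2 cKD, 2 of the 28 were higher than in NC, Ddit4 and Sesn2, and 1 was lower, Perp, near the 7.81% and 7.80% of all tested genes. The count of 2 higher was 6 with libraries scaled to equal totals and 6 with the replicate block. It was 0 with neither trend nor robust variances and 0 without Hdac1/2 cKD replicate 3. The call of Ddit4 was lost without Hdac1/2 cKD replicate 2 or 3, and that of Sesn2 was kept in 2 of 9 fits with 1 library left out. The direct comparison of Hdac1/2 cKD with Sin3a KD called 2 higher and 7 lower, against 8.49% and 8.78% of all tested genes, the lower ones including Perp (log2 -1.51), Dcxr (log2 -2.04), Bbc3 (log2 -1.18) and Apaf1 (log2 -0.68). That count of 7 was 4 without Sin3a KD replicate 3 and 3 with lane as a factor. How these genes relate to the level of Cdkn1a was not tested.

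Of 32 tested genes with a known part in repressing the inhibitor genes, 5 rose and 8 fell in Hdac1/2 cKD against NC, against 7.81% and 7.80% of all tested genes (median log2 -0.07), with the targeted Hdac1 and Hdac2 among those that fell. Myc, which represses Cdkn1a and Cdkn2b with Miz1, had 90.8, 114 and 65.1 in Hdac1/2 cKD, 432, 307 and 327 in Sin3a KD, against 713, 543 and 500.1 in NC. It fell in Hdac1/2 cKD against NC (log2 -2.71, SE 0.24, adjusted p = 1.58e-05). Cbx2, a Polycomb reader, rose to 521 ± 34.5 against 126 ± 25.2 (log2 2.06, SE 0.23, adjusted p = 9.74e-05). Sin3a KD against NC called 4 higher and 4 lower, against 3.60% and 4.36% of all tested genes, with Sin3a, Hdac1 and the inhibitor of differentiation Id3 among the lower. Without Hdac1/2 cKD replicate 3 the 5 higher were 3. In Sin3a KD the count of 4 higher was 2 or less when any library other than Sin3a KD replicate 2 was left out. In the comparison of Hdac1/2 cKD with Sin3a KD 4 were higher and 6 lower, against 8.49% and 8.78% of all tested genes. These include the siRNA targets, Sin3a higher and Hdac1 and Hdac2 lower, whose calls say nothing about the other repressors.

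Of 22 tested activators, 1 rose and 2 fell in Hdac1/2 cKD against NC, near the 7.81% and 7.80% of all tested genes, Klf6 higher and Jun and Foxo1 lower. Without Hdac1/2 cKD replicate 3 none of these 3 calls was kept. Sin3a KD against NC called 2 higher and 0 lower, against 3.60% and 4.36% of all tested genes, Junb (kept in 2 of 9 fits with 1 library left out) and the histone demethylase gene Kdm6b, which opens the Cdkn2a locus in other cells. Kdm6b was 5772, 5048 and 6059 in Sin3a KD, against 2445, 3451 and 2187 in NC, without overlap. Its log2 was 1.09 (SE 0.15, adjusted p = 0.00297). Cdkn2a did not pass there (log2 0.49, SE 0.39, adjusted p = 0.482), which does not show that its level was unchanged. Whether Kdm6b acts on Cdkn2a in these embryos was not tested. Set against Sin3a KD, Hdac1/2 cKD had 0 higher and 5 lower, against 8.49% and 8.78% of all tested genes, led by Jun (log2 -1.02) and Smad3 (log2 -1.11), and this count was 3 without Hdac1/2 cKD replicate 3, Sin3a KD replicate 1 or Sin3a KD replicate 3.

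Proteins that remove the inhibitors were covered by 16 genes, of which 1 rose and 2 fell in Hdac1/2 cKD against NC, near the 7.81% and 7.80% of all tested genes. Skp2 fell to 1328 ± 7.498 in Hdac1/2 cKD against 1997 ± 97.4 in NC (log2 -0.59, SE 0.11, adjusted p = 0.00349) and kept that call in all 19 alternative fits. Cul1 fell at adjusted p = 0.0453, kept in 2 of 9 fits with 1 library left out. Fbxl12 rose in Hdac1/2 cKD (log2 1.33, adjusted p = 0.0112, lost without Hdac1/2 cKD replicate 1) and in Sin3a KD (log2 1.67, adjusted p = 0.00770), where Ddb1, Cks2 and Cul1 fell. These are 1 higher and 3 lower of 16, against 3.60% and 4.36% of all tested genes. That count of 3 was 1 when any Hdac1/2 cKD library was left out and 0 without Sin3a KD replicate 1 or 3 or NC replicate 1. Ddb1 and Cul4b were higher and Fbxo31 was lower in Hdac1/2 cKD than in Sin3a KD, against 8.49% and 8.78% of all tested genes. Each of these calls was lost without Sin3a KD replicate 1. Protein levels were not measured.

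Other brakes on division were 15 tested genes, with 2 higher and 1 lower in Hdac1/2 cKD against NC, near the 7.81% and 7.80% of all tested genes. Btg3, an antiproliferative gene, rose in Hdac1/2 cKD, at 396 ± 125 against 67.0 ± 34.6 in NC (log2 2.65, SE 0.38, adjusted p = 0.000633), and was the 1 gene called in Sin3a KD, at 284 ± 58.5 (log2 2.21, SE 0.38, adjusted p = 0.00586). Sin3a KD against NC called 3.60% of all tested genes higher and 4.36% lower. Gadd45b, a stress gene, rose in Hdac1/2 cKD (log2 1.73, adjusted p = 0.000626) and Btg1 fell (log2 -1.03, adjusted p = 0.00885). Gadd45b was higher and Wee1 lower in Hdac1/2 cKD than in Sin3a KD, against 8.49% and 8.78% of all tested genes. The call of Wee1 was kept in 4 of 9 fits with 1 library left out.

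Genes of DNA replication and division were 30 tested genes, among them Cdc6, which prepares replication origins, and the Cdc25 phosphatases, which activate the kinases. Hdac1/2 cKD against NC called 6 higher and 5 lower, against 7.81% and 7.80% of all tested genes, with the mitotic genes Plk1 (log2 0.65, adjusted p = 0.000445) and Foxm1 (log2 0.80, adjusted p = 0.00703) higher and the S phase genes Cdc25a (log2 -0.75, adjusted p = 0.000445) and Cdc6 (log2 -0.70, adjusted p = 0.000627) lower. Sin3a KD against NC called 0 higher and 3 lower, against 3.60% and 4.36% of all tested genes, Aurka (log2 -0.59, adjusted p = 0.00621), Cdc25b and Bub1b, and this count was 1 without Sin3a KD replicate 2, NC replicate 1 or NC replicate 3 and 6 without NC replicate 2. Hdac1/2 cKD against Sin3a KD called 9 higher and 3 lower, against 8.49% and 8.78% of all tested genes.

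Markers were checked against the labelled stage. All 15 morula markers held reads in all 9 libraries, and their summed normalised counts were 48036 to 50338 in Hdac1/2 cKD, 61132 to 67391 in Sin3a KD and 66402 to 74693 in NC. Of these, 10 were lower and 0 higher in Hdac1/2 cKD than in NC, 4 lower and 0 higher in Sin3a KD than in NC, and 10 lower and 2 higher in Hdac1/2 cKD than in Sin3a KD. Of all tested genes 7.80% were lower in Hdac1/2 cKD than in NC, 4.36% in Sin3a KD than in NC and 8.78% in Hdac1/2 cKD than in Sin3a KD. The shares called higher were 7.81%, 3.60% and 8.49% in the same order. The count of 4 was 1 without Sin3a KD replicate 3 and 2 without Sin3a KD replicate 1, NC replicate 1 or NC replicate 3. Oocyte markers summed to 664 to 707 in Hdac1/2 cKD, 594 to 738 in Sin3a KD and 584 to 799.9 in NC, and 0 of 10 tested were called in any comparison. Markers of the 2-cell stage summed to 778 to 982 in Hdac1/2 cKD, 1027 to 1057 in Sin3a KD and 1045 to 1303 in NC, with 1 of 10 tested, Tdpoz2, lower in Hdac1/2 cKD than in NC (lost without Hdac1/2 cKD replicate 1 or 3 or NC replicate 3) and 0 called otherwise. Cumulus and granulosa markers summed to 5878 to 6002 in Hdac1/2 cKD, 6186 to 6747 in Sin3a KD and 5411 to 7136 in NC, most of it Nr5a2, which embryos also express, and 0 of 8 tested were called. Of the 14 in the table, 8 held reads in all 9 libraries, among them Amhr2 with means of 269 in Hdac1/2 cKD, 284 in Sin3a KD and 376 in NC, Inhbb with 165 in Hdac1/2 cKD, 225 in Sin3a KD and 150.1 in NC, and Hsd17b1 with 76.9 in Hdac1/2 cKD, 137 in Sin3a KD and 111 in NC. Cyp19a1 and Vcan were at 0 in all NC libraries, with means of 2.08 and 6.57 in Hdac1/2 cKD and 1.26 and 0.277 in Sin3a KD. The part of these markers in the changes of the inhibitor genes was not tested. Over all tested genes 15.6% were called in Hdac1/2 cKD against NC, 7.96% in Sin3a KD against NC and 17.3% in Hdac1/2 cKD against Sin3a KD. Beside these shares, few or no calls among 8 or 10 tested markers do not show that their levels were stable.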

How the data were processed

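Polyadenylated RNA from 9 libraries of 60 embryos was sequenced. The series text has Salmon counting the reads per transcript, and the submitters' processing notes name DESeq2 and the build GRCm38. Versions and the annotation behind the counts were not given in the sources used here. Signal values as deposited are the authors' normalised counts. Low values lay within 0.1 of whole reads in 65.0% to 78.5% of cases, so whole reads were not recovered and no count test was run. One line without a name (up to 0.00896% of a total) was left out.

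The test took genes that reached 10 in 3 or more libraries and ran on log2(value + 1) in limma 3.58.1 under R 4.3.3, all 9 libraries in 1 fit with 1 mean per group and moderated variances (trend and robust). Tested on simulated data, the fit missed part of the known changes and called some unchanged genes, so a gene that did not pass can have changed. GENCODE vM21 gave coordinates and lengths (19072 symbols, 94.9%, matched 1 gene), and RefSeq gave the promoter windows. Lanes read from the descriptions were 2, 2 and 3 for Hdac1/2 cKD, 4, 3 and 3 for Sin3a KD and 5, 2 and 3 for NC.

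The inhibitor genes and the 14 other gene lists were chosen with earlier results of these data known. Named genes were the 7 inhibitors, the targets, their neighbours and likeness genes, and from each list and comparison the called genes of lowest adjusted p (at most 4, or 2 genes where none was called). The p53 half-site was added after the sequences were seen. Of 285 list entries 271 were in the table and 248 were tested.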

Additional observations from a re-analysis of the deposited data

How the results depend on the processing

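All counts are of genes called higher and lower over all tested genes, against 1042 and 1041 in Hdac1/2 cKD against NC, 480 and 582 in Sin3a KD against NC and 1133 and 1171 in Hdac1/2 cKD against Sin3a KD as reported. With libraries scaled to equal totals Hdac1/2 cKD against NC had 1386 higher and 675 lower and Sin3a KD against NC 741 higher and 425 lower, with the median of all genes at log2 0.15 and 0.12 in place of 0.03, and no inhibitor gene changed sign. Moderation with neither trend nor robust variances gave 600 lower in Hdac1/2 cKD against NC, 17 higher and 19 lower in Sin3a KD against NC and 775 lower in Hdac1/2 cKD against Sin3a KD. Fitting only the 2 groups gave 278 and 335 in Sin3a KD against NC. With lane as a factor, Hdac1/2 cKD against NC had 657 lower, Sin3a KD against NC 61 and 33 and Hdac1/2 cKD against Sin3a KD 450.0 and 552. Without NC replicate 1 and Sin3a KD replicate 1, both alone on their lanes, these were 573 lower, 25 and 24, and 722 and 668. With 1 library left out the counts ranged from 602 to 1115 higher and 647 to 1060 lower in Hdac1/2 cKD against NC, 122 to 741 and 209 to 796 in Sin3a KD against NC and 715 to 1372 and 683 to 1387 in Hdac1/2 cKD against Sin3a KD. Lane and group are partly confounded, and fits with fewer libraries have less power. Otherwise the cause was not tested.

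Over all alternatives, the inhibitor genes kept direction and call in 353 values, gained a call in 16, lost one in 14 and changed sign in 7, none of them called. The changes of sign in Sin3a KD against NC were Cdkn1b (log2 -0.11) and Cdkn2b (log2 -0.22) with lane as a factor, Cdkn2b without Sin3a KD replicate 2 (log2 -0.064) and Cdkn2d without Sin3a KD replicate 2 or 3 (log2 0.54) and without NC replicate 2 (log2 1.25). In Hdac1/2 cKD against NC it was Cdkn2c without NC replicate 3 (log2 -0.27). Cdkn1a in Sin3a KD against NC kept its log2 of 0.48 but not its call with neither trend nor robust variances (adjusted p = 0.153) and with only the 2 groups (0.0844), and lost the call with lane as a factor (log2 0.30) and without both libraries alone on their lanes (log2 0.43, adjusted p = 0.237). Cdkn2a in Hdac1/2 cKD against Sin3a KD lost its call with lane as a factor (log2 1.79). Cdkn1b in Hdac1/2 cKD against NC passed with a pseudocount of 5 (log2 1.71, adjusted p = 0.0420) and with equal totals (log2 2.24, 0.0465). Cdkn2c in Sin3a KD against NC passed with a pseudocount of 5 (0.0449), no filter (0.0483), a mean of at least 50 (0.0409) and equal totals (log2 1.61, 0.0399). Cdkn2c in Hdac1/2 cKD against Sin3a KD passed with only the 2 groups (log2 -1.20, 0.00449) and with lane as a factor (0.0326, log2 -2.02). With 1 library left out, the log2 in Hdac1/2 cKD against NC ranged from 0.21 to 0.41 for Cdkn1a, 1.43 to 2.69 for Cdkn1b, 1.15 to 1.5 for Cdkn1c and -0.27 to 0.83 for Cdkn2c. In Sin3a KD against NC the ranges were 0.36 to 0.60 for Cdkn1a, -0.064 to 0.74 for Cdkn2b, 0.93 to 2.03 for Cdkn2c and -1.33 to 1.25 for Cdkn2d, and for Cdkn2c in Hdac1/2 cKD against Sin3a KD -1.30 to -1.02. A mean of at least 50 left no value for Cdkn1b, Cdkn2b and Cdkn2d.

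Same-numbered libraries of different groups had deviations from the group means that correlated at -0.02 to 0.06 over 9 pairs, none over 0.1, so the numbers were not taken to pair samples. In 11 of 18 cases a library correlated best with the same number in another group, where unpaired numbers would give about 1 in 3, a hint from the data and not from the design. The cases share correlations and are not independent. Some same-numbered libraries, such as replicate 3 of each group, also shared a lane. The replicate block gave 1057 higher and 1083 lower in Hdac1/2 cKD against NC, and Cdkn2c passed with it in Sin3a KD against NC (adjusted p = 0.0279) and in Hdac1/2 cKD against Sin3a KD (log2 -1.20, 0.0412), with no other change of call among the inhibitor genes.

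Of 51 gene list counts above 0, lane as a factor moved 33 by more than 1.5 times, neither trend nor robust variances 32 and removing both libraries alone on their lanes 28. Of the 14 such counts in Sin3a KD against NC these settings moved 13, 14 and 13, so those counts depend on these settings. Leaving out 1 library moved 17, 16 and 17 for Hdac1/2 cKD replicates 1, 2 and 3, 18, 6 and 18 for Sin3a KD and 10, 11 and 12 for NC.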
